A study of Mus musculus with 24 samples.

Results

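The transcripts of 8 chemokine genes, Cxcl10, Ccl2, Ccl7, Ccl8, Ccl5, Cxcl12, Cxcl16 and Cx3cl1, were followed in ID8 mouse ovarian cancer cells with and without interferon beta (IFN beta). The genes were chosen by name from the gene symbols of the count table, 8 of 24614 genes, and all 8 were among the 11698 genes tested. They are 8 of the 27 chemokine ligand genes that the count table holds, of which 14 were tested. Listed genes are called analysed below where the count table holds them. All cells were the Trp53 and Brca2 double knockout form of ID8. Total RNA was profiled by 3′ tag sequencing, in which each captured transcript is counted once through a unique molecular identifier (UMI). The groups were Ifnar1 knockout clone 1CF10, Ifnar1 knockout clone 2CD7, cells carrying the CRISPR empty vector (EV) and untransfected cells (WT), each treated with recombinant murine IFN beta at 10000 IU/ml for 3 h or left untreated. Ifnar1 encodes a chain of the receptor for type I interferons, and EV and WT cells have it intact. Each of the 8 groups held 3 libraries, technical replicates of a single treatment date per the labels. The p-values therefore measure the spread between these libraries and not between cultures made on different days. Each knockout line is 1 clone and stands for itself.

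Chemokines are small secreted proteins that bind receptors on leukocytes and direct where these cells migrate. Tumour cells and the mesothelial lining of the peritoneum are among their sources in ovarian cancer. Type I interferon binds the receptor made of Ifnar1 and Ifnar2 and switches on genes whose promoters carry interferon-stimulated response elements, and Cxcl10 is a well known target. Cxcl10 attracts activated T cells and natural killer cells through Cxcr3. Ccl2 and Ccl7 attract monocytes through Ccr2, and Ccl8 is their neighbour in a cluster of related genes. Ccl5 attracts T cells and monocytes, and Cxcl12 retains and guides many cell types through Cxcr4. Cxcl16, the ligand of Cxcr6, and Cx3cl1, the ligand of Cx3cr1, are made as membrane-anchored proteins that proteases can release.

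Upstream sequences are shown for the gene with the largest rise, Cxcl10, for Ccl8, whose rise differed most in size between the lines with intact Ifnar1, and for Cxcl12, which moved the other way. Each line gives the 250 bases before the RefSeq transcript start on GRCm38.p6, read 5′ to 3′ on the strand of the gene, and capitals mark the motif matches found. The windows are chr5:92348890-92349139 on the minus strand for Cxcl10, chr11:82114935-82115184 on the plus strand for Ccl8 and chr6:117168285-117168534 on the plus strand for Cxcl12.
Cxcl10: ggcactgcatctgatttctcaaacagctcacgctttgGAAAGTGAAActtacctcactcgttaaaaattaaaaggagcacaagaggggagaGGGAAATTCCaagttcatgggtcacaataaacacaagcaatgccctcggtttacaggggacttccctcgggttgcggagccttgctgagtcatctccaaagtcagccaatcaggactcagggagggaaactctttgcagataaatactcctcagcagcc
Ccl8: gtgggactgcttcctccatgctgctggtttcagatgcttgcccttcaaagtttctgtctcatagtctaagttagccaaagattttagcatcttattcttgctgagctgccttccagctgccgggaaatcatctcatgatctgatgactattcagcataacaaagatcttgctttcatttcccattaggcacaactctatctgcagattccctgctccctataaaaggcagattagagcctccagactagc
Cxcl12: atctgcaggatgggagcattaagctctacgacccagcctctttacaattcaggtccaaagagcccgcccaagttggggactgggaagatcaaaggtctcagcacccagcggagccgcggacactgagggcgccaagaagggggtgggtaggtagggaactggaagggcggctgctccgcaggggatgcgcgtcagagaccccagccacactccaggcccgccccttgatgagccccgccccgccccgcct
The motifs searched on both strands were the interferon-stimulated response element as GAAANNGAAA, the gamma-activated sequence as TTCNNNGAA and the kappaB site as GGGANNTTCC. Other spellings of these sites were not searched, so unmarked letters may hold them. The Cxcl10 window held the first as GAAAGTGAAA, 213 to 204 bases before the start, and the kappaB motif as GGGAAATTCC, 159 to 150 bases before it. The Ccl8, Cxcl12 and Cx3cl1 windows held no match, which says only that these letters are not in these windows. Of 32851 promoter windows of the same length, 2.98% held the response element, 7.02% the gamma-activated sequence and 1.21% the kappaB motif. Sequences were matched for 4 of the 8 genes, and those of Ccl2, Ccl5, Ccl7 and Cxcl16 are not shown here.

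Libraries held 1972192 to 3097331 UMIs and 15685 to 16951 detected genes. Levels are UMIs per 1000000 UMIs of a library (CPM). In a 3′ assay they do not scale with transcript length. They are set side by side between genes on that basis, and differences in capture between genes were not measured. Of 10 mesothelial and epithelial markers, 9 were analysed and 7 passed the filter on low counts, and their summed level was 2431 to 4098 CPM per library. Krt7 and Lrrn4, with 21 and 10 UMIs in all 24 libraries, did not pass, and Epcam was not among the analysed genes. The sum is not neutral to treatment, since Krt18 rose by 0.58 log2 units in EV cells (edgeR adjusted p = 3.57e-11) and 0.92 in WT cells (edgeR adjusted p = 9.11e-19). Wt1 was also called higher in EV cells (0.30, edgeR adjusted p = 0.0144) and Krt8 in WT cells (0.45, edgeR adjusted p = 0.00449). Markers of this list were called between untreated lines as well. The leukocyte markers reached at most 4.54 CPM in sum in any library, with 6 of 17 analysed and none past the filter. Their largest contributor was Cd68, with 115 UMIs in all 24 libraries, and Itgam had 1 UMI. The fibroblast list, read almost wholly from Col1a1 and Dcn, was highest in 1CF10, at 143 to 175 CPM in treated and 136 to 194 CPM in untreated libraries, against 29.1 to 88.0 CPM in the other lines. Its part in the differences between lines was not tested. Ifnar1 tags were lower in the mean of the treated clones than in that of the treated controls by the test of edgeR (log2 fold change -0.53 ± 0.18 SE, adjusted p = 0.0237). They averaged 11.4 and 7.57 CPM in treated 1CF10 and 2CD7 cells, against 11.1 and 14.7 CPM in treated EV and WT cells. Treated 1CF10 was thus not below treated EV on average. In untreated cells neither clone differed from EV or WT past this test. The edgeR adjusted p ran from 0.102 (2CD7 against EV) to 0.353 (1CF10 against WT). Tags at the 3′ end do not show whether the coding sequence is intact, so they do not check the knockout.

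**Figure D1:**
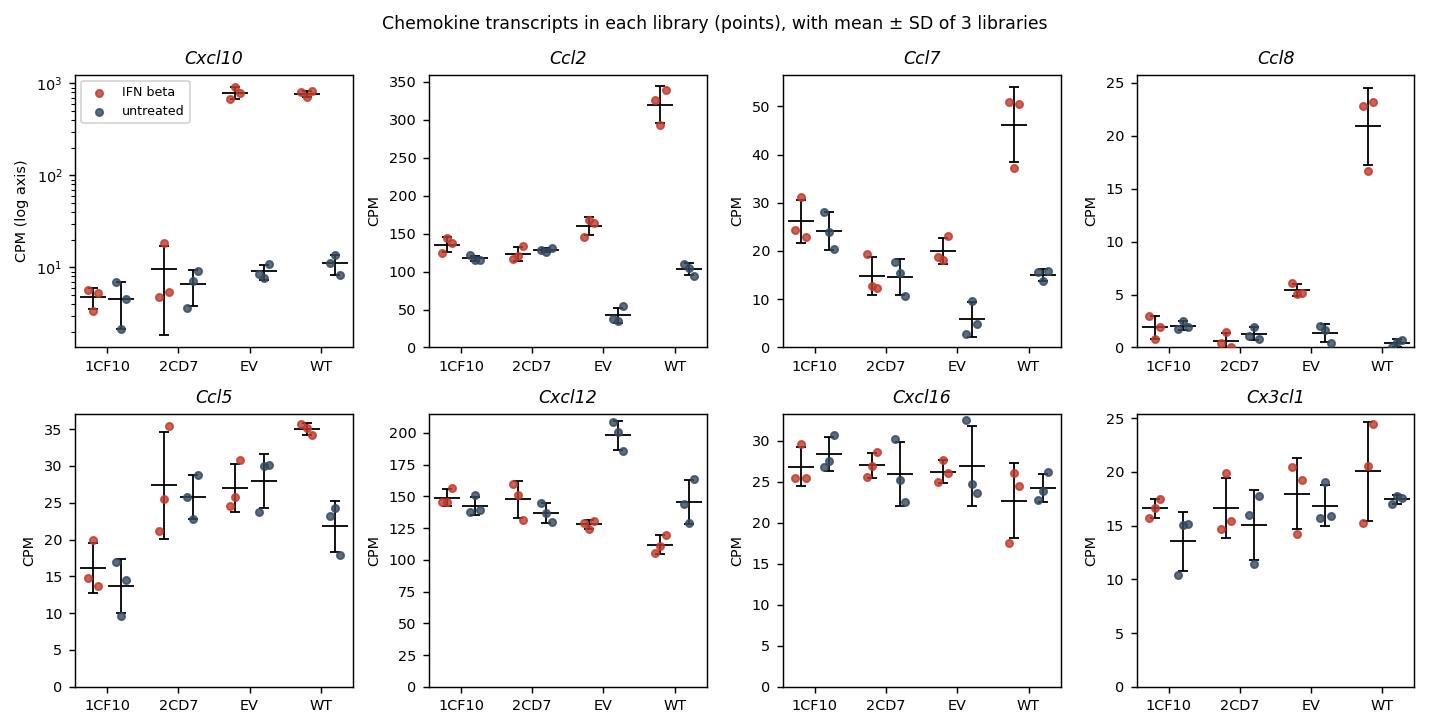
Level of each chemokine gene in CPM (y axis; log axis for Cxcl10, linear from 0 for the rest) in the 24 libraries by line (x axis). Points are libraries, red for IFN beta and blue for untreated, and lines with bars are the mean ± SD of 3 libraries. Treated EV and WT libraries lie at 680 to 915 CPM for Cxcl10, and all other libraries at 2.14 to 18.4 CPM.

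The question asked of the lines with intact Ifnar1 was which chemokine transcripts change within 3 h of IFN beta. In EV cells Cxcl10, Ccl2, Ccl7 and Ccl8 rose and Cxcl12 fell. In WT cells the same 4 genes and Ccl5 rose, and Cxcl12 fell. Cxcl16 and Cx3cl1 passed the test in neither line. By the quasi-likelihood F test of edgeR at an adjusted p below 0.05, 4 of 8 members were called higher and 1 lower in EV cells, where 5.09% of the 11698 tested genes were called, 3.99% higher and 1.1% lower. In WT cells 5 members were called higher and 1 lower, against 6.85% of tested genes called, 5.01% higher and 1.84% lower. The median log2 fold change of the members was 0.97 in EV cells and 1.20 in WT cells, against -0.01 and -0.02 over all tested genes. Ccl8 met the filter on low counts only through the treated EV and WT libraries, so it had to differ there, and these counts and medians are descriptions. In bulk RNA a larger share of producing cells and more RNA per cell cannot be told apart.

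Cxcl10 (ENSMUSG00000034855, chr5:92346638-92348889, minus strand) had the largest rise of the 8. It stood at 680, 915 and 783 CPM in treated EV libraries, against 8.43, 7.71 and 11 CPM in untreated ones. Treated WT libraries held 805, 705 and 817 CPM of it, against 11.2, 13.7 and 8.25 CPM untreated. The groups lay far apart, with the lowest treated library of either line at 680 CPM and the highest untreated one at 13.7 CPM. The fitted rise was 89.8-fold in EV cells (95% interval 62.3 to 129.6; edgeR adjusted p = 1.37e-12) and 74.3-fold in WT cells (51.8 to 106; edgeR adjusted p = 1.51e-12). This placed Cxcl10 9th from the top by log2 fold change in EV cells and 18th in WT cells, of 11698 genes. The antisense neighbour Art3 overlaps it with 21 UMIs in all 24 libraries, against 12508 for Cxcl10.

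Ccl2 and Ccl7 lie 8258 bases apart on chromosome 11, both on the plus strand, and rose by similar factors. Ccl2 (ENSMUSG00000035385, chr11:82035571-82037453) had 146, 168 and 164 CPM in treated EV libraries, against 38.1, 34.9 and 54.1 CPM in untreated EV libraries. In WT cells its level was 327, 293 and 340 CPM with IFN beta and 110, 105 and 94.2 CPM without. Every treated library of a line was above every untreated one, and treated WT libraries were above all others of the 24. The rise was 3.88-fold in EV cells (3.35 to 4.49; edgeR adjusted p = 1.28e-23) and 3.21-fold in WT cells (2.84 to 3.63; edgeR adjusted p = 3.49e-24). Ccl7 (ENSMUSG00000035373, chr11:82045712-82047525) is a less abundant transcript, at 18.8, 18.2 and 23.1 CPM in treated EV libraries, against 2.81, 9.74 and 4.88 CPM untreated. Treated WT libraries had 50.9, 37.2 and 50.5 CPM of Ccl7, against 15.7, 13.7 and 15.8 CPM untreated. The groups did not overlap in either line, and the untreated EV libraries were the most uneven. The rise of Ccl7 was 3.51-fold in EV cells (2.38 to 5.18; edgeR adjusted p = 2.52e-06) and 3.12-fold in WT cells (2.37 to 4.11; edgeR adjusted p = 5.67e-09). Without the second untreated EV library the log2 fold change of Ccl7 in EV cells was 2.42, against 1.81 with all libraries.

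The proportion between these neighbours changed little with treatment. There were 8.03 Ccl2 UMIs for each Ccl7 UMI in treated EV cells and 7.30 in untreated EV cells, 6.95 in treated WT cells and 6.73 in untreated WT cells. The range over single libraries was widest in untreated EV cells, at 3.58 to 13.6, where Ccl7 counts were 7 to 24 UMIs. No test was made of this ratio.

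Ccl8 (ENSMUSG00000009185, chr11:82115185-82116799, plus strand) is 67659 bases beyond Ccl7 and was the scarcest of the 8 in untreated cells. Its UMIs numbered 15, 14 and 12 in treated EV libraries, against 5, 4 and 1 in untreated ones. In treated WT libraries there were 60, 48 and 57 UMIs, against 0, 1 and 2 untreated. Both lines separated fully, with more Ccl8 in treated WT than in treated EV libraries. The ratio of summed UMIs, scaled to library totals, was 4.03 in EV cells (95% exact counting interval 1.99 to 9.03) and 49.1 in WT cells (16.5 to 241), where the untreated sum was only 3 UMIs. The fitted log2 fold changes were 2.01 ± 0.48 (SE) in EV cells and 5.51 ± 0.46 in WT cells, given as a description, since Ccl8 entered this fit through its treated libraries. With no filter on low counts, where its entry did not depend on them, they were 2.02 in EV cells (edgeR adjusted p = 0.00153) and 5.53 in WT cells (edgeR adjusted p = 1.47e-31). The WT value moved to 6.24 without the third untreated WT library, which held 2 of the 3 UMIs. Ccl11 and Ccl12, which lie between Ccl7 and Ccl8, had 13 and 6 UMIs in all 24 libraries.

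Ccl5 (ENSMUSG00000035042, chr11:83525778-83530518, minus strand) passed the test in WT cells and not in EV cells. Its level was 24.5, 25.8 and 30.8 CPM in treated EV libraries, against 23.7, 30 and 30.1 CPM untreated, and these groups overlapped. Treated WT libraries had 35.7, 35.1 and 34.2 CPM, against 23.3, 24.3 and 17.9 CPM untreated, with no overlap. The log2 fold change was -0.01 in EV cells (95% interval -0.35 to 0.33) and 0.75 ± 0.17 (SE) in WT cells (edgeR adjusted p = 0.00160).

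Cxcl12 (ENSMUSG00000061353, chr6:117168535-117181367, plus strand) was the one member that fell. It had 129, 124 and 130 CPM in treated EV libraries, against 208, 200 and 185 CPM in untreated EV libraries. The WT libraries held 105, 111 and 120 CPM with IFN beta and 144, 129 and 163 CPM without. Treated libraries were below untreated ones in both lines, by a narrow margin in WT. The log2 fold change was -0.59 ± 0.08 (SE) in EV cells (edgeR adjusted p = 1.54e-07), which left it 11417th from the top of 11698 genes. In WT cells it was -0.35 ± 0.09 (edgeR adjusted p = 0.00494). The WT call was lost without the first treated WT library (-0.29, edgeR adjusted p = 0.0733) and without the third untreated WT library (-0.24, edgeR adjusted p = 0.191).

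The membrane-anchored pair showed no difference past the test in any of the 14 comparisons made. Cxcl16 (ENSMUSG00000018920, chr11:70453983-70459984, minus strand) averaged 22.7 to 28.3 CPM over the 8 groups. Its log2 response was 0.00 in EV cells (95% interval -0.32 to 0.32) and -0.06 in WT cells (-0.39 to 0.27). Zmynd15, named here because it overlaps Cxcl16 on the opposite strand, had 1256 UMIs against 1603 for Cxcl16, and the sources used here do not say whether counting used strand, so the split between them is uncertain. The log2 response of Zmynd15 was -0.14 ± 0.18 (SE) in EV cells and 0.00 ± 0.17 in WT cells. Cx3cl1 (ENSMUSG00000031778, chr8:94772009-94782427, plus strand) averaged 13.5 to 20.0 CPM over the groups, with a log2 response of 0.12 in EV cells (-0.28 to 0.52) and 0.24 in WT cells (-0.15 to 0.63). None of the 14 comparisons gave either gene an unadjusted p under 0.05 in edgeR, and these intervals still allow modest changes.

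**Figure D2:**
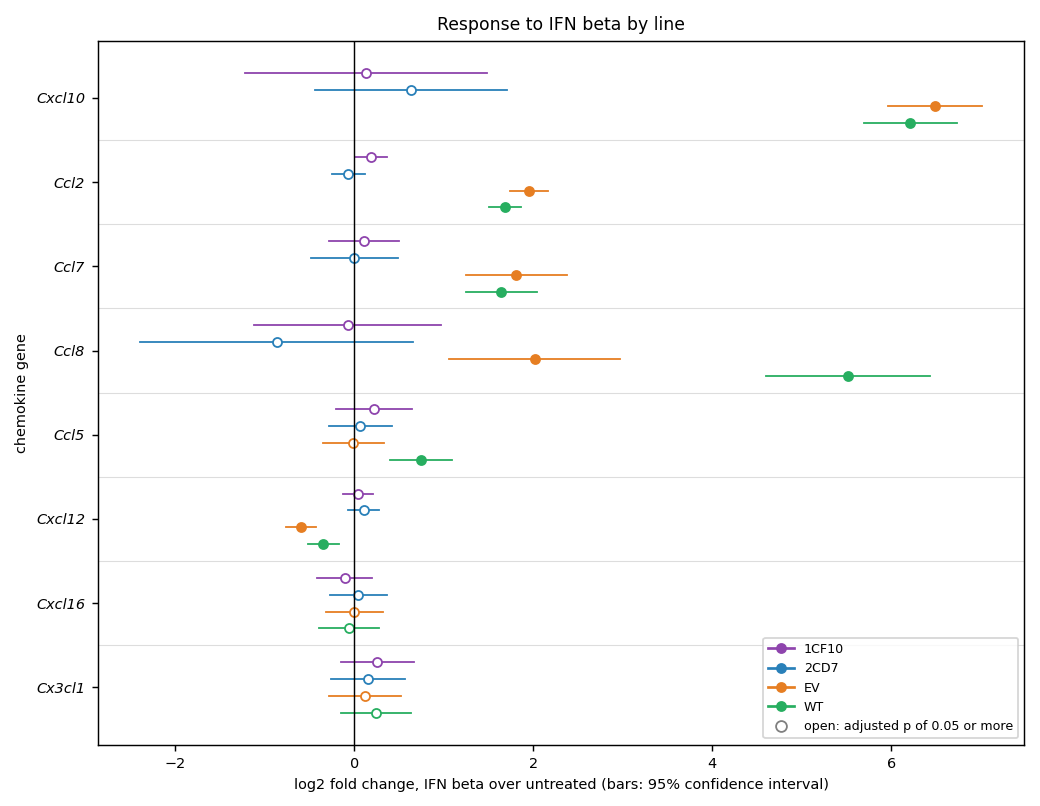
Log2 fold change of IFN beta over untreated (x axis) for the 8 chemokine genes (y axis) in 1CF10, 2CD7, EV and WT cells, with 95% confidence intervals as bars. Filled points have an edgeR adjusted p below 0.05. Cxcl10 lies at 6.49 in EV and 6.21 in WT cells, while the clones' intervals include 0 for all genes except Ccl2 in 1CF10, whose lower bound is 0.00450.

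The responses of the lines with intact Ifnar1 were then set against each other. No member was called for the EV response minus the WT response by edgeR, DESeq2 or limma-voom, while edgeR called 0.0427% of all tested genes (0.0256% higher and 0.0171% lower). At an unadjusted p under 0.05 edgeR gave 3 members and 805 of the 11698 tested genes. Ccl8, among these 3, met the filter on low counts only through treated EV and WT libraries. The largest of these differences was that of Ccl8, at -3.50 ± 0.90 log2 units (SE; edgeR adjusted p = 0.149). It passed without the third untreated EV library (-3.92, edgeR adjusted p = 0.0407) and with no filter on low counts (-3.50, edgeR adjusted p = 0.0376). Ccl5 differed by -0.76 ± 0.24 (edgeR adjusted p = 0.320) and Cxcl12 by -0.25 ± 0.12 (edgeR adjusted p = 0.714). For Cxcl10 the difference was 0.27 with a 95% interval of -0.78 to 1.33, and for Ccl2 it was 0.27 with an interval of -0.01 to 0.55. The rise of Ccl5 past the test in WT alone is therefore not shown to differ between the lines.

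The same responses were then read in the Ifnar1 knockout clones. Untreated 1CF10 and 2CD7 already differed from untreated EV in 10.4% and 8.86% of tested genes. Loss of Ifnar1 and other differences of these clones from the controls therefore cannot be told apart. No chemokine changed past the test in either clone, and the responses of Cxcl10, Ccl2, Ccl7 and Ccl8 were smaller in the clones than in the controls. By edgeR 0 of 8 members and 0% of tested genes were called in 1CF10 and in 2CD7, and DESeq2 and limma-voom also called no member. At an unadjusted p under 0.05 edgeR gave 1 member and 485 genes in 1CF10, and 0 members and 510 genes in 2CD7. That member was Ccl2, at a log2 response of 0.19 in 1CF10 (95% interval 0.00450 to 0.369; edgeR adjusted p = 0.998).

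Cxcl10 had 5.69, 3.33 and 5.32 CPM in treated 1CF10 libraries, against 6.93, 2.14 and 4.52 CPM untreated. In 2CD7 it had 4.76, 18.4 and 5.44 CPM with IFN beta, against 3.64, 7.08 and 9.07 CPM untreated. Treated and untreated libraries overlapped in both clones, and the second treated 2CD7 library, with 52 UMIs against 11 and 12 in the other two, stood above all untreated libraries of the 4 lines. The log2 response was 0.13 in 1CF10 (-1.22 to 1.48) and 0.63 in 2CD7 (-0.44 to 1.70), or -0.36 in 2CD7 without that library. The clones' mean response minus the controls' mean response was -5.97 ± 0.56 log2 units (SE; edgeR adjusted p = 8.36e-07).

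For Ccl2, treated 1CF10 libraries had 124, 144 and 138 CPM, against 122, 116 and 115 CPM untreated, and treated 2CD7 libraries had 116, 120 and 133 CPM, against 128, 125 and 132 CPM untreated. The treated 1CF10 libraries all lay just above the untreated ones, and those of 2CD7 overlapped. Ccl7 averaged 26.2 ± 4.4 CPM in treated and 24.1 ± 3.9 CPM in untreated 1CF10 cells, and 14.8 ± 4.0 CPM in treated and 14.6 ± 3.6 CPM in untreated 2CD7 cells (SD, n = 3 each). Ccl8 summed to 16 UMIs in treated and 17 in untreated 1CF10 libraries, and to 5 in treated and 10 in untreated 2CD7 libraries. The clones' response minus the controls' response was -1.76 ± 0.10 for Ccl2 (edgeR adjusted p = 4.50e-23), -1.67 ± 0.23 for Ccl7 (edgeR adjusted p = 4.26e-07) and -4.23 ± 0.63 for Ccl8. With no filter on low counts the Ccl8 difference was -4.25 (edgeR adjusted p = 2.61e-09). With the filter it was -4.95 without the second treated 2CD7 library, which held 4 of its 5 UMIs.

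Cxcl12 did not fall in the clones. Its log2 response was 0.05 in 1CF10 (-0.12 to 0.21) and 0.10 in 2CD7 (-0.07 to 0.28), and the clones' response minus the controls' response was 0.54 ± 0.09 (edgeR adjusted p = 2.16e-06). The same difference for Ccl5 was -0.22 (-0.59 to 0.14), for Cxcl16 it was 0.00 (-0.32 to 0.32) and for Cx3cl1 0.02 (-0.38 to 0.42), and none of these passed the test. In all, 1 member was called higher and 4 lower for this difference, against 5.24% of tested genes called, 1.56% higher and 3.68% lower. The lower calls include Ccl8, which met the filter only through treated EV and WT libraries, so this count is a description. Between the clones' own responses no member was called and none had an unadjusted p under 0.05, where 0% of all genes were called by edgeR, and DESeq2 and limma-voom called no member either.

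Compared directly after IFN beta, the mean of the clones was lower than the mean of the controls for Cxcl10, Ccl2, Ccl7, Ccl8 and Ccl5 and higher for Cxcl12. For Ccl7 and Ccl5 this did not hold for each clone against each control. These 5 lower and 1 higher calls stand against 21.7% of tested genes called, 12% lower and 9.72% higher. With Ccl8 among the lower calls, this count too is a description. The log2 difference was -6.86 ± 0.18 (SE) for Cxcl10 (edgeR adjusted p = 1.83e-15) and -3.20 ± 0.32 for Ccl8 (edgeR adjusted p = 7.47e-22 with no filter on low counts). It was -0.88 ± 0.06 for Ccl2 (edgeR adjusted p = 1.13e-18) and -0.70 ± 0.14 for Ccl7 (edgeR adjusted p = 0.000209). Treated Ccl7 averaged 26.2 ± 4.4 CPM in 1CF10 and 14.8 ± 4.0 CPM in 2CD7, against 20.0 ± 2.7 CPM in EV and 46.2 ± 7.8 CPM in WT (SD, n = 3 each), so 1CF10 was above EV on average, and each clone overlapped EV. Ccl5 differed by -0.63 ± 0.12 (edgeR adjusted p = 7.73e-05), but its treated levels were 16.1 ± 3.4 CPM in 1CF10 and 27.4 ± 7.3 CPM in 2CD7, against 27 ± 3.3 CPM in EV and 35.0 ± 0.8 CPM in WT (SD, n = 3 each), so 2CD7 and EV overlapped. Cxcl12 was higher in the treated clones by 0.24 ± 0.06 (edgeR adjusted p = 0.00204). The Ccl8 value was -3.92 without the second treated 2CD7 library.

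Added over the 8 genes, chemokine transcripts made up 377 ± 16.6 CPM in treated and 346 ± 4.1 CPM in untreated 1CF10 cells, and 367 ± 8.2 CPM in treated and 355 ± 11.2 CPM in untreated 2CD7 cells (SD, n = 3 each). The sum was 1177 ± 125 CPM in treated and 328 ± 3.1 CPM in untreated EV cells, and 1352 ± 97.4 CPM in treated and 339 ± 9.1 CPM in untreated WT cells. The 4 untreated sums thus lay within 328 to 355 CPM although their makeup differed. Cxcl10 supplied 67.5% of these UMIs in treated EV cells, against 2.75% untreated, and 57.4% in treated WT cells, against 3.15% untreated. Cxcl12 supplied 10.8% in treated EV cells, against 60.3% untreated, and 8.29% in treated WT cells, against 43.5% untreated. In the clones Cxcl12 held 39.6% in treated and 41.2% in untreated 1CF10 cells, and 40.3% in treated and 38.6% in untreated 2CD7 cells. Without Cxcl10 the sum was 384 CPM in treated and 319 CPM in untreated EV cells, and 576 CPM in treated and 328 CPM in untreated WT cells. The 8 genes held 84.0% to 94.7% of all chemokine ligand UMIs analysed, depending on the group.

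**Figure D3:**
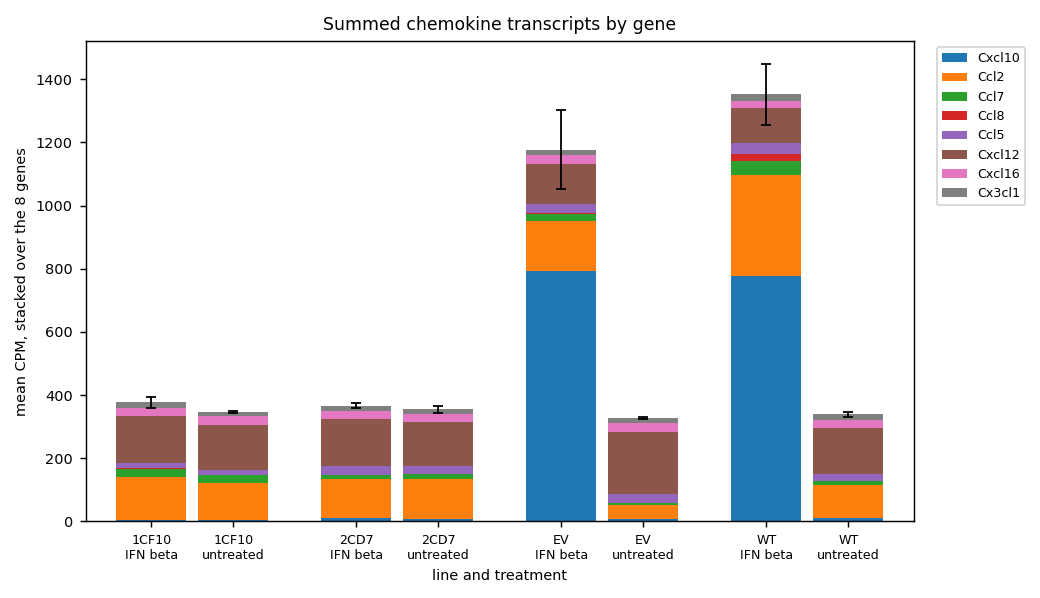
Mean CPM of each chemokine gene (y axis, stacked over the 8 genes) for each line and treatment (x axis), with error bars showing the SD of the summed level over 3 libraries. Treated EV and WT columns reach 1177 and 1352 CPM, most of it Cxcl10, and the other 6 columns lie between 328 and 377 CPM.

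Untreated lines were compared to see where the chemokines stood before treatment. EV cells had less Ccl2 and Ccl7 and more Cxcl12 than any other line, and 1CF10 had less Ccl5 than the rest. Ccl2 had 122, 116 and 115 CPM in 1CF10 and 128, 125 and 132 CPM in 2CD7, against 38.1, 34.9 and 54.1 CPM in EV and 110, 105 and 94.2 CPM in WT. The EV libraries were below all others. Ccl2 was higher than in EV by 1.44 ± 0.11 log2 units (SE) in 1CF10 (edgeR adjusted p = 3.29e-16) and by 1.59 ± 0.11 in 2CD7 (edgeR adjusted p = 1.40e-17), and lower in EV than in WT, at -1.28 ± 0.11 (edgeR adjusted p = 8.07e-14). Against WT the difference was 0.16 in 1CF10 (-0.03 to 0.36), short of the threshold. It was 0.32 ± 0.09 in 2CD7 (edgeR adjusted p = 0.0431), a call lost under DESeq2, limma-voom and equal depth, and without any one of the 3 untreated 2CD7 libraries or the second or the third untreated WT library.

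Ccl7 was lowest in EV, as Ccl2 was, and highest in 1CF10. Its mean was 24.1 ± 3.9 CPM in 1CF10 and 14.6 ± 3.6 CPM in 2CD7, against 5.81 ± 3.6 CPM in EV and 15.1 ± 1.2 CPM in WT (SD, n = 3 each). It exceeded EV by 2.00 ± 0.27 log2 units in 1CF10 (edgeR adjusted p = 1.72e-07) and by 1.33 ± 0.29 in 2CD7 (edgeR adjusted p = 0.00133), and EV minus WT was -1.38 ± 0.30 (edgeR adjusted p = 0.000604). These values were 2.60, 1.93 and -1.96 without the second untreated EV library. Ccl7 was higher in 1CF10 than in WT (0.62 ± 0.22, edgeR adjusted p = 0.0368), a call lost without any one of 5 libraries (the first or second of 1CF10, or any of WT) and under DESeq2, limma-voom and equal depth. It was lower in 2CD7 than in 1CF10 (-0.68 ± 0.22, edgeR adjusted p = 0.0276), which was lost at equal depth, without the first or second 1CF10 library and without the second or the third 2CD7 library. In 2CD7 and WT the levels did not differ past the test (-0.05, interval -0.54 to 0.43).

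Cxcl12 was highest in EV and close to level elsewhere. It averaged 142 ± 7.2 CPM in 1CF10 and 137 ± 7.7 CPM in 2CD7, against 198 ± 12 CPM in EV and 146 ± 17 CPM in WT (SD, n = 3 each). The difference from EV was -0.50 ± 0.08 in 1CF10 (edgeR adjusted p = 6.12e-06) and -0.54 ± 0.08 in 2CD7 (edgeR adjusted p = 2.17e-06), and EV minus WT was 0.44 ± 0.08 (edgeR adjusted p = 7.24e-05). The clones and WT did not differ past the test in any pairing, with intervals within -0.27 and 0.14.

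Ccl5 had 16.9, 9.65 and 14.5 CPM in 1CF10 and 25.8, 22.8 and 28.8 CPM in 2CD7, against 23.7, 30 and 30.1 CPM in EV and 23.3, 24.3 and 17.9 CPM in WT. The 1CF10 libraries were below all others. The difference from EV was -1.07 ± 0.19 (edgeR adjusted p = 3.47e-05), that from WT was -0.69 ± 0.20 (edgeR adjusted p = 0.0103) and 2CD7 minus 1CF10 was 0.95 ± 0.19 (edgeR adjusted p = 0.000199). The call against WT was lost without the second 1CF10 library (-0.50, edgeR adjusted p = 0.118), the first WT library (-0.62, edgeR adjusted p = 0.0514) or the second WT library (-0.60, edgeR adjusted p = 0.0582). Between 2CD7, EV and WT no Ccl5 difference passed the test.

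Cxcl10 and Ccl8 were low in all untreated lines. Untreated Cxcl10 averaged 4.53 ± 2.4 CPM in 1CF10 and 6.60 ± 2.8 CPM in 2CD7, against 9.04 ± 1.7 CPM in EV and 11 ± 2.7 CPM in WT (SD, n = 3 each). The 1CF10 libraries were all below those of EV and WT, but the difference was -1.06 ± 0.56 from EV (edgeR adjusted p = 0.298) and -1.31 ± 0.55 from WT (edgeR adjusted p = 0.113). Against WT it passed under DESeq2 (-1.32, DESeq2 adjusted p = 0.0352), limma-voom (-1.38, limma adjusted p = 0.0363) and a fit of these groups alone (-1.30, edgeR adjusted p = 0.00280), and against EV in the fit of the groups alone (-1.06, edgeR adjusted p = 0.0240). Ccl8 summed to 17 UMIs in untreated 1CF10 and 10 in untreated 2CD7 cells, against 10 in untreated EV and 3 in untreated WT cells. The 1CF10 to WT ratio of summed UMIs, scaled to library totals, was 4.91 (95% exact counting interval 1.42 to 26.2). The fitted log2 difference was 2.14 (edgeR adjusted p = 0.0382). This call was lost under DESeq2, without the filter, at equal depth and without the second or the third 1CF10 library or any one of the WT libraries. The fitted value moved to 2.86 without the third WT library.

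Over the untreated comparisons, the share of members called can be read against all genes. In 1CF10 against EV 2 members were called higher and 2 lower, with 10.4% of all tested genes called (3.6% higher, 6.76% lower). For 1CF10 against WT there were 2 higher and 1 lower, with 19.2% of genes called (8.19% higher, 11% lower). For 2CD7 against EV the counts were 2 higher and 1 lower, with 8.86% called (4% higher, 4.86% lower), and for 2CD7 against WT 1 higher and 0 lower, with 3.51% called (1.45% higher, 2.06% lower). For EV against WT they were 1 higher and 2 lower, with 14.1% called (6.96% higher, 7.14% lower). In 2CD7 against 1CF10 they were 1 higher and 1 lower, with 13.4% called (7.71% higher, 5.69% lower). Comparisons that share an untreated line share its libraries.

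**Figure D4:**
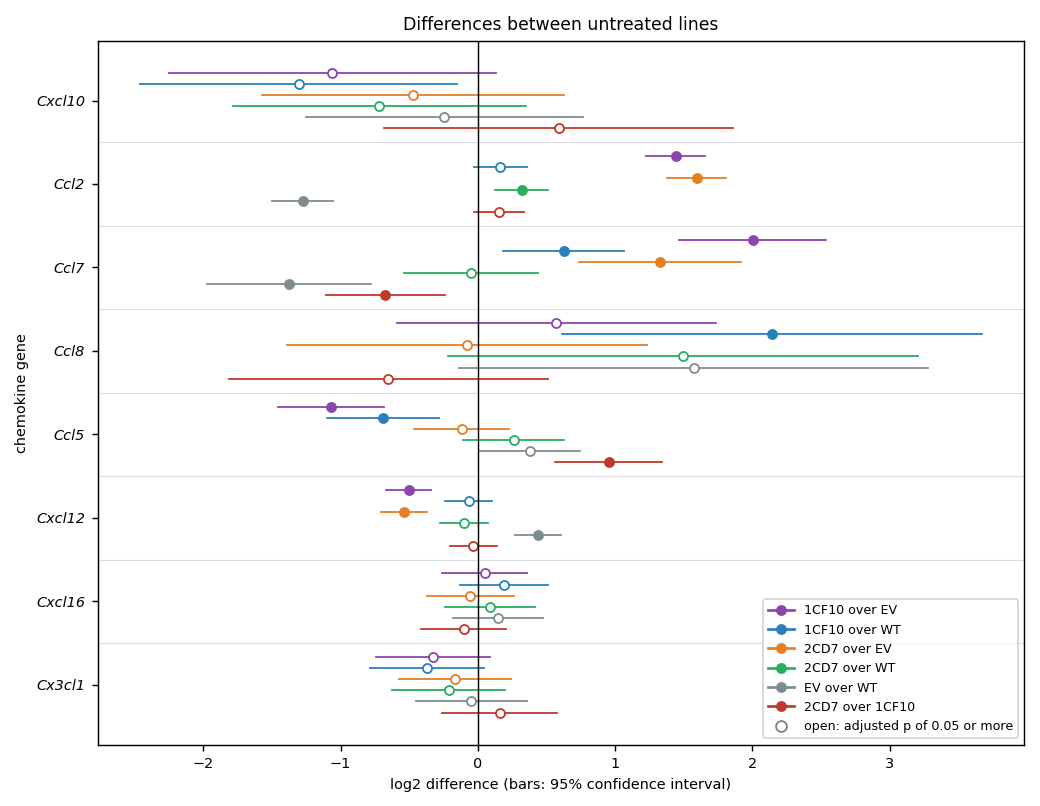
Log2 difference between untreated lines (x axis) for the 8 chemokine genes (y axis), one colour for each of 6 comparisons, with 95% confidence intervals as bars. Filled points have an edgeR adjusted p below 0.05. For Ccl2 and Ccl7 both clones lie above EV and EV lies below WT, at -1.28 and -1.38, and for Cxcl12 the signs are turned round.

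Across the 8 group means, the log2 levels of Ccl2 and Ccl7 moved together (Pearson r = 0.94, given as a description over 8 groups that share lines), and both moved against Cxcl12 (r = -0.97 and -0.92). Cxcl10 and Ccl8 had r = 0.84. The genes most like each member by this measure, of 10105 searched, were Irgm1, Mpeg1 and Ifi206 for Cxcl10 (r = 0.997, 0.996 and 0.996), and Asrgl1, Mvp and Rpsa-ps12 for Ccl2 (0.987, 0.973 and 0.956). Mvp was also first for Ccl7 (0.964), before Ccl2 itself and Taf8 (0.933). For Ccl8 they were Nsun4, Zcchc2 and Pkp4 (0.963, 0.962 and 0.961), and for Cxcl12 Ncapg, Lrwd1 and Fitm2 (0.991, 0.959 and 0.946). Ccl5 was closest to Zdhhc4, Snw1 and Cul4b (0.965, 0.965 and 0.963), Cxcl16 to Gpn1, Rps19bp1 and Iars (0.970, 0.958 and 0.958) and Cx3cl1 to Wsb2, Chchd2-ps and Arhgap8 (0.963, 0.952 and 0.939). With 8 groups and so many genes searched, values of this size are found for flat genes such as Cxcl16 as well.

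Among other chemokine ligands, 19 of 33 listed were analysed and 6 passed the filter. Of these 1 rose in EV and in WT cells and none fell. It was Cxcl17, a mucosal chemokine, at 13.4 ± 5.4 CPM in treated and 5.81 ± 2.4 CPM in untreated EV cells, and 31.8 ± 4.0 CPM in treated and 16.3 ± 1.6 CPM in untreated WT cells (SD, n = 3 each). Its log2 rise was 1.24 ± 0.28 (SE) in EV cells (edgeR adjusted p = 0.00150) and 1.00 ± 0.19 in WT cells (edgeR adjusted p = 0.000109). The other Cxcr3 ligands, Cxcl9 and Cxcl11, named here after their values were seen, were at the limit of detection. Cxcl9 had 9 UMIs in treated WT cells and 0 in the other 7 groups, and Cxcl11 had 12 UMIs in treated EV and 9 in treated WT cells and 0 in the other 6 groups. Among untreated lines Ccl17, a ligand of Ccr4, was lower than in WT in 1CF10 (-2.95 ± 0.40, edgeR adjusted p = 3.92e-08), in 2CD7 (-1.14 ± 0.31, edgeR adjusted p = 0.0226) and in EV (-2.44 ± 0.38, edgeR adjusted p = 1.68e-06). Ccl9 was higher in EV than in WT by 1.30 ± 0.25 (edgeR adjusted p = 7.44e-05), and Ccl20, a ligand of Ccr6, was higher in 1CF10 than in WT by 1.03 ± 0.37 (edgeR adjusted p = 0.0407). Untreated 2CD7 minus EV was -1.30 ± 0.24 for Ccl9 (edgeR adjusted p = 7.16e-05) and 1.32 ± 0.28 for Cxcl17 (edgeR adjusted p = 0.000432). Cxcl17 was also lower than in WT in 1CF10 (-1.54 ± 0.27, edgeR adjusted p = 9.64e-06) and in EV (-1.49 ± 0.27, edgeR adjusted p = 3.38e-05). Other calls of these genes between untreated lines are not listed.

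Chemokine receptors were scarce in these cells. Of 24 listed, 12 were analysed and 2 passed the filter, Ccr7 and Ccrl2. Ccrl2, an atypical receptor that presents the attractant chemerin and does not signal to migration, had 23 UMIs in treated EV cells and 43 in treated WT cells and 0 in both untreated groups, a rise of at least 7.54-fold in EV and 12.8-fold in WT cells taking 3 UMIs over the group as the floor. It passed the filter through these treated groups. Cxcr6 and Cx3cr1, the receptors of the membrane-anchored pair, had 6 and 5 UMIs in all 24 libraries. Of 10 tested genes for chemokine cleavage and presentation, which include the sheddases Adam10 and Adam17, none was called for the response in EV cells by edgeR (2 had an unadjusted p under 0.05), and in WT cells Ctsb rose by 0.28 ± 0.07 (edgeR adjusted p = 0.00458) and Sdc1 fell by 0.30 ± 0.09 on the log2 scale (edgeR adjusted p = 0.0285).

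Of 18 tested regulators of chemokine transcription and mRNA decay, 9 were called higher in EV cells and 8 in WT cells, none lower, and 0 in either clone by edgeR, where 0 in 1CF10 and 1 in 2CD7 had an unadjusted p under 0.05. Among the larger rises were those of Irf7 (3.25 ± 0.28 in EV and 4.09 ± 0.29 in WT cells), Stat2 (3.04 ± 0.16 in EV and 3.19 ± 0.15 in WT cells) and Irf9 (2.03 ± 0.18 in EV and 2.34 ± 0.19 in WT cells), as log2 fold changes with SE. Stat2 and Irf9 act in the factor that binds interferon-stimulated response elements, and Irf7 amplifies type I interferon expression. The NF-kB genes of this list, Nfkb1, Nfkb2, Rela, Relb, Rel and Nfkbia, named after their values were seen, lay between -0.15 and 0.09 in EV cells and between -0.36 and 0.32 in WT cells. None was called by edgeR, and 3 of them (Nfkb1, Nfkb2 and Rel) had an unadjusted p under 0.05 in WT cells and 0 in EV cells. These are transcript levels. The activity of these regulators and their binding to the printed motifs were not measured.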

How the data were processed

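The deposited values are raw UMI counts per Ensembl gene, which the authors made without normalization, with 1 column for each of the 24 libraries. The tools listed in the submitters' processing notes are cutadapt 3.0, limma 3.50.0, edgeR 3.36.0 and R 4.1.2 and 3.6.2, on builds mm10 and GRCm38, with no roles. The sources used here do not give the aligner. filterByExpr (at least 10 counts in enough libraries and 15 in all) kept 11698 of 24614 genes holding 99.5% to 99.6% of UMIs. One model of all libraries was fitted in R 4.3.3 with edgeR 4.0.16 (TMM scaling, quasi-likelihood F test on 8 group means, tested on simulated data). A call needed an adjusted p under 0.05 by Benjamini-Hochberg across the tested genes of a comparison. The SE of a log2 fold change is its size over the square root of F, and 95% intervals come from the t distribution. CPM are counts per library total. UMIs count molecules, and exact intervals cover counting error only.

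The members and lists were chosen with earlier results of these data known. The 8 members and Ifnar1 were always named, with up to 4 called genes of each list by size of change (averaged over EV and WT for treatment, or over the untreated comparisons) and the 3 genes most correlated with each member over group means. A gene that this rule names is not reported here. Same-numbered libraries did not deviate together (mean r 0.00928 over 84 pairs, none over 0.1), so no pairing was used. All pairs of libraries of a group differed beyond sampling noise, with a chi-square per gene of at least 1.42. The third treated 1CF10 library stood furthest from its partners, at 4.90 and 3.82, against at most 2.80 for any other pair. Without any single library, this one included, the count of members called for the 1CF10 response stayed at 0. Other settings were RLE size factors, DESeq2 1.42.0, limma-voom (limma 3.58.1), no filter, a minimum count of 30, a replicate block, equal depth by thinning all libraries to the smallest, the compared groups alone and leaving out each library. Coordinates are from GENCODE M21 on GRCm38 (24538 of 24614 identifiers matched, all 8 members), and upstream sequences from RefSeq on GRCm38.p6.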

Additional observations from a re-analysis of the deposited data

Results flagged for a closer look

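For 5 of the 8 chemokine genes the response to IFN beta differed between the Ifnar1 knockout clones and the lines with intact Ifnar1 by the test of the difference itself in edgeR, clones' mean response minus controls' mean response. Of all tested genes 5.24% were called for this difference, 1.56% higher and 3.68% lower. The difference was -5.97 ± 0.56 log2 units (SE) for Cxcl10 (edgeR adjusted p = 8.36e-07) and -4.23 ± 0.63 for Ccl8. Ccl8 met the filter on low counts only through treated EV and WT libraries, and with no filter its difference was -4.25 (edgeR adjusted p = 2.61e-09). It was -1.76 ± 0.10 for Ccl2 (edgeR adjusted p = 4.50e-23) and -1.67 ± 0.23 for Ccl7 (edgeR adjusted p = 4.26e-07). Cxcl12 differed in the other direction, at 0.54 ± 0.09 (edgeR adjusted p = 2.16e-06), since it fell in the controls and did not change past the test in the clones.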

How the results depend on the processing

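The responses were stable across settings: the WT response counted 5 to 6 called members and the EV response 5 over all alternatives, the clones 0, and the clones' minus the controls' response 5. Of 1846 alternative values for 112 gene results, 1806 kept their side of the threshold. The call was lost by 34 and gained by 6, and 0 reversed while called. A value not called could change sign and still count as kept, as for the Cxcl10 response in 2CD7, at 0.63 and down to -0.36. The count for untreated 1CF10 against EV was 4 to 5, and those for 2CD7 against EV and EV against WT stayed at 3. The counts that moved by more than 1.5 times, or to or from 0, follow. For 2CD7 against WT the count of 1 was 0 under DESeq2, limma-voom and equal depth, and 0 to 1 without single libraries. For 1CF10 against WT the count of 3 was 1 at equal depth and 0 to 2 without single libraries. For 2CD7 against 1CF10 the count of 2 was 1 at equal depth and 1 to 2 without single libraries. EV minus WT moved to 1, Ccl8, with no filter, and was 0 to 1 without single libraries. By construction, leaving out a library gives fewer libraries, equal depth gives fewer UMIs and no filter gives more tested genes. DESeq2 and limma-voom use the same libraries and filter with another method. The cause of each change was not tested. With the replicate block the counts were 6 in WT, 5 in EV and 5 for clones minus controls, and 0 of 112 gene calls changed. Ccl8 gave no value in some fits of the compared groups alone, where it did not pass the filter. At this depth, low counts limit Ccl8 and untreated Cxcl10 most.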
